A study of Mus musculus with 4 samples.

Results

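The dystrophin complex was followed through 9 genes, Dmd, Utrn, Dag1, Sgca, Sgcb, Sgcd, Sntb1, Dtna and Lama2, in the open chromatin of 4 mouse muscles. A peak was counted for a gene when the authors' annotation named that gene as the owner of the nearest transcription start site (TSS). Under this rule 135 of 120839 peaks belonged to the 9 genes. Peaks of different muscles that overlapped by at least 1 bp were joined, which gave 63 regions for these genes among 53883 in all. The study mapped accessible DNA by ATAC-seq, which uses the Tn5 transposase to cut and tag open chromatin, in wild type C57BL/6 mice. The muscles were the extensor digitorum longus (EDL) and the quadriceps (Quad), which are rich in fast fibres, the soleus (Sol), which is rich in slow fibres, and the diaphragm (Dia), the main muscle of breathing. The methods describe the mice as C57BL/6J males, and the labels name no treatment. Each muscle had 1 library here, described in its label as pooled, and how many animals or preparations a pool held is not known. Every difference between muscles below therefore describes these libraries and has no replicate check. Where 4 values follow one another without names, they are in the order EDL, Quad, Sol and Dia.

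The peak lists held 30136 peaks in EDL and 40337 in Quad, and 28784 in Sol and 21582 in Dia. The lowest-scored peak of a list held between 25 and 36 inferred tags, a tag being an aligned read end. Tag numbers here are raw and not scaled to library size. The inferred library totals were 104 M tags (M, mega) in EDL, 78.1 M in Quad, 105 M in Sol and 99.3 M in Dia. Equal tags therefore stand for a higher scaled signal in Quad than in the others. Frozen whole muscle was used, so the nuclei of all its cell types were pooled, and a site open in few cells cannot be told apart from a site weakly open in many. Promoter peaks were present at 6 of 8 muscle fibre marker genes in EDL and 7 in Quad, and 5 in Sol and 5 in Dia. Of all protein-coding genes, 39%, 42.8%, 38.9% and 38.3% had one, shares that serve for the other markers too. None of 5 leukocyte markers had a promoter peak in any list, with between 0 and 5 peaks assigned to them per muscle. The 5 endothelial markers had 28 peaks in EDL and 32 in Quad, and 31 in Sol and 19 in Dia, and promoter peaks at 3, 4, 4 and 1 of them. The part of endothelial nuclei in the peaks of the dystrophin complex genes was not tested.

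Dystrophin is a long rod beneath the muscle membrane that ties the actin cytoskeleton to a group of membrane proteins. Dystroglycan spans the membrane in this group and holds laminin in the basement membrane outside the fibre, the sarcoglycans form a subcomplex beside it, and syntrophins and dystrobrevins gather signalling proteins on the inner face. Loss of dystrophin causes Duchenne muscular dystrophy, and utrophin, its close relative, is enriched at the neuromuscular junction of healthy fibres. An ATAC-seq peak at a gene marks DNA that the transposase could reach, such as a promoter or an enhancer, and does not measure how much RNA the gene makes.

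The 9 genes had 33 peaks in EDL and 47 in Quad, and 33 in Sol and 22 in Dia. Their spread over the muscles followed the length of the lists: EDL held 24.4% of the members' peaks and 24.9% of all peaks, Quad 34.8% and 33.4%, Sol 24.4% and 23.8%, and Dia 16.3% and 17.9%. When each list was limited to its 20000 highest-scored peaks, the genes had 18 peaks in EDL and 21 in Quad, and 18 in Sol and 19 in Dia. Most of the surplus in Quad was thus among peaks below that limit. All 9 genes had at least 1 peak in EDL, where 56.5% of all protein-coding genes had one, and in Quad, where 62.2% did. In Sol 8 of the 9 genes had a peak, against 56.3% of all genes, and in Dia 8 of 9, against 53%. The absent gene was Lama2 in both.

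Utrn carried the most peaks in every muscle, with 10 in EDL and 16 in Quad, and 11 in Sol and 8 in Dia. It alone supplied 45 of the 135 peaks. Sntb1 and Dtna had 19 each over the 4 lists, Sgcd 17, Dmd 12, Dag1 8, Sgca 6, Lama2 5 and Sgcb 4. These are counts per gene and not per length, and the genes run from 13.5 kb for Sgca to 2257 kb for Dmd. Peaks per 100 kb of gene body are given further on.

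**Figure D1:**
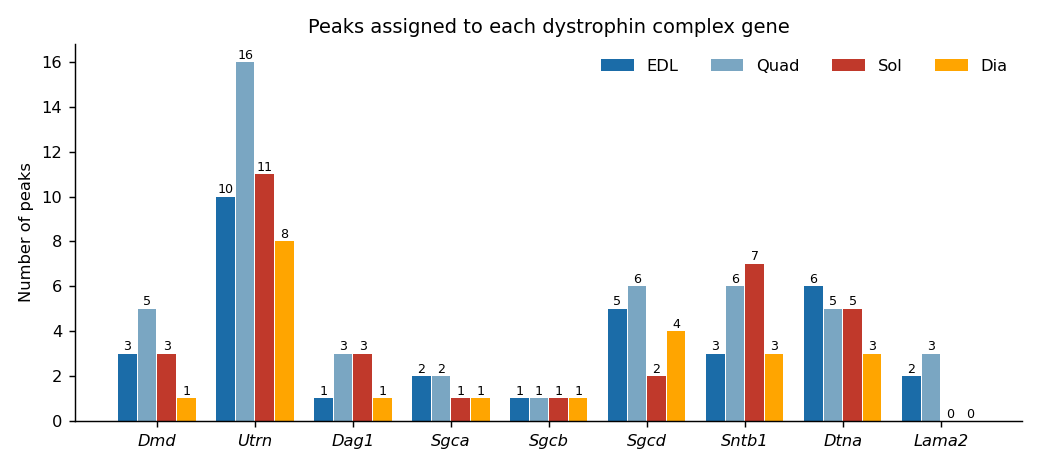
Number of ATAC-seq peaks assigned to each of the 9 genes (vertical axis, count) in EDL, Quad, Sol and Dia, with 1 library per muscle and the count above each bar. Utrn is the tallest group in every muscle, from 8 peaks in Dia to 16 in Quad, and Lama2 has 0 in Sol and Dia.

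Few of these peaks lay in the promoter class. The authors' promoter class, from 1 kb upstream to about 100 bp downstream of a TSS, held 20 of the 135 peaks, introns held 75, intergenic DNA 33, and exons, untranslated regions or transcript ends 7. In EDL 15.2% of the genes' peaks (95% Wilson interval 6.65 to 30.9) were promoter peaks, against 30.7% of all peaks. In Quad the share was 12.8% (5.98 to 25.2) against 25.5%, in Sol 15.2% (6.65 to 30.9) against 31.9%, and in Dia 18.2% (7.31 to 38.5) against 41.3%. The share was lower than in the whole list in all 4 muscles, and the list's own share lay above the interval in Quad, Sol and Dia and inside it in EDL. This depended on which starts were counted. Taking instead every peak centred within 1 kb of a GENCODE coding start, a rule added after seeing the data, the share in EDL was 9 of 33 peaks (27.3%, 15.1 to 44.2) against 35.3% of all peaks. In Quad it was 11 of 47 (23.4%, 13.6 to 37.2) against 30.5%, in Sol 7 of 33 (21.2%, 10.7 to 37.8) against 36.8%, and in Dia 8 of 22 (36.4%, 19.7 to 57.0) against 46.8%. The interval then contained the share of the whole list in all 4 muscles. Peaks of 1 gene share a locus and are not independent, so intervals over peaks or regions cover counting error only. Introns held 54.5% of the genes' peaks in EDL against 34.3% of all, 55.3% against 37.3% in Quad, 63.6% against 33.1% in Sol, and 45.5% against 26.6% in Dia. Of the 135 peaks, 51 lay more than 50 kb from the nearest TSS, of which 27 belonged to Utrn and 18 to Sntb1, both genes over 100 kb long.

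Apart from the scores printed for Dag1 and Sgca, and the tags given for single regions, peak scores were compared only by rank within a list. The rank is the percent of that list's peaks with a lower score, with ties at their mean rank. The median percentile of the genes' peaks was 43.2 in EDL (95% interval of the median 20.5 to 49.7, n = 33) and 43.4 in Quad (32.4 to 55.7, n = 47), and 33.4 in Sol (17.6 to 56.1, n = 33) and 36.1 in Dia (16.7 to 62.1, n = 22). Ranked only against peaks of the same annotation class, the genes' peaks had median percentiles of 43.3, 50.7, 41.8 and 49.3. Each was higher than the whole-list median, though hardly so for EDL. The low ranks in the whole lists therefore do not describe peak strength apart from class. Against all peaks, 84 of the 135 ranked below the median of their list. The upper end of the range was held by the promoter of Dag1, and all 5 Lama2 peaks and 11 of the 12 Dmd peaks lay below their list's median.

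A promoter-class peak was assigned to 5 of the 9 genes in EDL and 5 in Quad, and 4 in Sol and 4 in Dia. Among all protein-coding genes the shares were 39%, 42.8%, 38.9% and 38.3%. Dmd, Dag1, Sgcd and Dtna had one in all 4 lists, which held for 31.2% of all genes. Lama2 had one in EDL and Quad. Utrn, Sgca, Sgcb and Sntb1 had none in any list, yet each had peaks close to another start or just inside the gene, described gene by gene below.

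**Figure D2:**
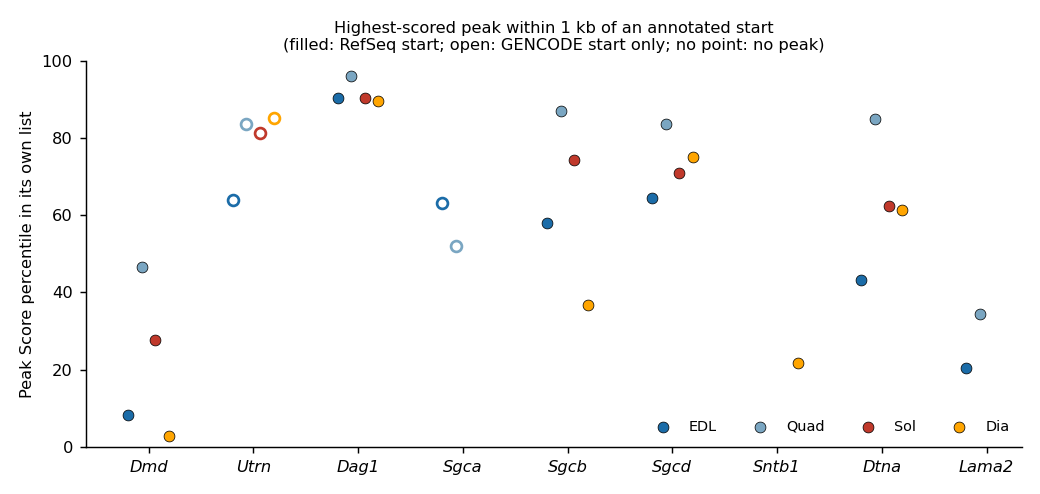
Highest-scored peak within 1 kb of an annotated start of each gene, as a percentile of Peak Score within its own list (vertical axis, 0 to 100), by muscle, with filled points for a RefSeq start and open points for a GENCODE coding transcript start only. Dag1 lies between 89.5 and 96.0 in all 4 muscles while Dmd lies between 2.92 and 46.5.

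Dmd, which encodes dystrophin, spans chrX:82948870-85206141 (mm10, plus strand). The start of its long muscle transcript was open in all 4 lists, at a low rank. The peak there held 43 tags in EDL (exact 95% Poisson interval 31.1 to 57.9) and 49 in Quad (36.3 to 64.8), and 56 in Sol (42.3 to 72.7) and 42 in Dia (30.3 to 56.8). These stood at percentile 8.30 for EDL, 46.5 for Quad, 27.7 for Sol and 2.92 for Dia within their own lists. As raw tags, the 4 intervals overlapped one another. The EDL and Dia peaks lay close to the lowest-scored peaks that were called in those muscles. Another promoter peak, at an internal start that gives short transcripts, was called in Quad only, with 37 tags (26.1 to 51.0) and percentile 23.4. The nearest peak of another muscle lay 35800 bp from it, in Sol.

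Both Dmd promoters are shown, as the 250 bases upstream of their RefSeq starts, because the gene has no other promoter peak, with an intron region called in EDL and Quad only for comparison. Capitals mark matches on either strand to MEF2, CArG box, AP-1 (TGANTCA), NFAT (TGGAAA) and SP1 (GGGCGG) motifs, here and in the sequences below. The muscle promoter is chrX:82948620-82948869, the internal promoter chrX:85048045-85048294 and the intron region chrX:82966851-82966917, all on the plus strand of GRCm38.p6, the assembly of mm10.
Dmd muscle promoter: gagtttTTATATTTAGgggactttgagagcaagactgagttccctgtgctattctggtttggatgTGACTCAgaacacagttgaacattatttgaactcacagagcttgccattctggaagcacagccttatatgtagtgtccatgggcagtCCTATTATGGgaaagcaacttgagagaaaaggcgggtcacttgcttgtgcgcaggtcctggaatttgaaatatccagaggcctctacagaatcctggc
Dmd internal promoter: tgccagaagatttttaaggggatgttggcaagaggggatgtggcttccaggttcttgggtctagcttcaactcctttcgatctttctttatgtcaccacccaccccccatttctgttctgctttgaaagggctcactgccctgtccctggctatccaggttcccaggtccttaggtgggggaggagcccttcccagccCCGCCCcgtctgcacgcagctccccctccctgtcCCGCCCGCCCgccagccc
Dmd intron 1 region: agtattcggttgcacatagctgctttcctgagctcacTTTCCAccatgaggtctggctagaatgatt

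The muscle promoter held 1 match each to MEF2, the CArG box and AP-1. In RefSeq promoter windows running from 250 bases before to 50 bases after a start, MEF2 matched in 1.86% of 32817 windows, the CArG box in 1.63% and AP-1 in 7.81%. The internal promoter was richer in G and C, 60% against 45.2%, and held 3 SP1 matches, a motif found in 35.6% of windows. Such matches describe letters and are not evidence of binding.

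The remaining Dmd peaks lay in introns. In intron 1 a region 7.20 kb from the muscle start was called in EDL (percentile 45.5), Quad (32.4) and Sol (6.65), and one 17.9 kb from it in EDL (54.4) and Quad (25.8). The nearest Dia peak to these was 6994 bp and 17780 bp away, and in both cases this was the peak at the muscle promoter. In intron 63 a Sol peak (percentile 1.85) and a Quad peak (18.0) lay 420 bp apart, about 36 kb past the internal start. Dia thus had a peak of Dmd at the muscle promoter and nowhere else, whereas Quad had 5.

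Utrn, which encodes utrophin, lies at chr10:12382188-12869365 on the minus strand. No list had a peak within 1 kb of the RefSeq start used in the authors' distances. A pair of regions annotated as intergenic, 6.53 kb and 7.48 kb upstream of that start, was open in all 4 muscles. The region at 7.48 kb ranked at percentile 63.9 in EDL and 83.6 in Quad, and 81.3 in Sol and 85.1 in Dia, with 89, 97, 126 and 140 tags. The region at 6.53 kb ranked at 49.7, 68.2, 64.6 and 64.2, with 72, 69, 93 and 92 tags. In GENCODE these regions sit at the starts of coding Utrn transcripts, the former 135 bp inside a transcript and the latter 69 bp before another. The region at 7.48 kb was the best-ranked Utrn region in each muscle. Between the pair a further region, at percentile 65.8, was called in Quad only, 115 bp to 159 bp from the peaks of the other muscles. Farther upstream, a region at 17.0 kb was called in EDL (20.5), Quad (52.1) and Sol (9.81), and one at 13.3 kb in Quad only (65.8).

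Inside the gene, 4 intronic regions were open in all 4 lists. The region in intron 24, 166.8 kb from the RefSeq start, ranked at percentile 52.5 in EDL and 61.1 in Quad, and 79.2 in Sol and 35.4 in Dia. It held 75, 61, 120 and 62 tags, so Sol was the highest by tags as well. In intron 10, 124.3 kb in, Sol again ranked highest, at 51.0, against 13.7 in EDL, 15.0 in Quad and 2.92 in Dia. The intron 1 regions at 80.0 kb and 73.6 kb ranked between 20.8 and 56.1 and between 18.4 and 60.1. A further intron 1 region at 40.2 kb was called in EDL (44.3), Quad (36.4) and Sol (52.8), with the nearest Dia peak 33085 bp away.

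Beyond the gene's 3' end, a region 507 kb from the start was called in Sol (percentile 33.4) and Dia (11.4). A separate Quad peak (28.0) began 1 bp from it, so the region is shared by Sol and Dia only under the rule of overlap, while the nearest EDL peak was 295983 bp away. Of the 20 Utrn regions 6 were found in all 4 lists, 2 in 3, 3 in 2 and 9 in 1, and 7 of the last were in Quad.

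**Figure D3:**
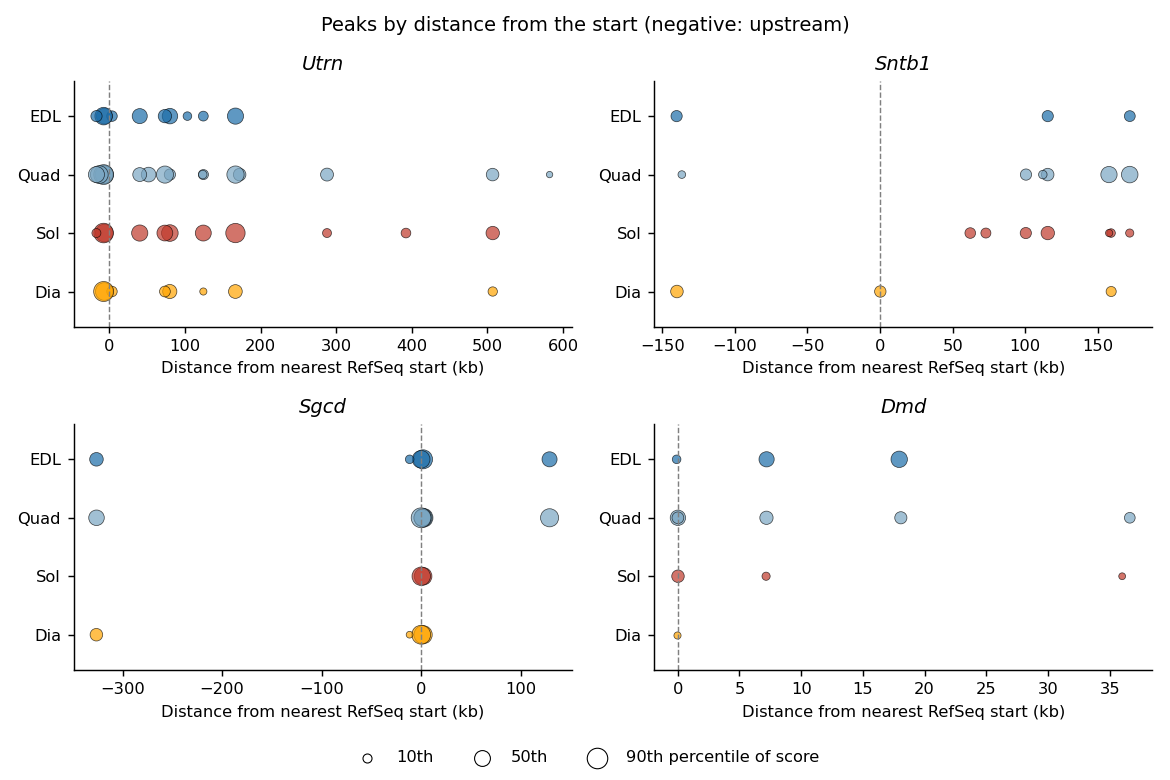
Peaks of Utrn, Sntb1, Sgcd and Dmd by distance from the nearest RefSeq start of the gene (horizontal axis, kb, negative upstream), with a row for each muscle and point area growing with the score percentile. Utrn peaks reach from 17.1 kb upstream to 582 kb downstream, Sntb1 has a single peak near its start, in Dia, and Dmd distances are taken from the nearer of its starts.

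The bases common to the peaks of all 4 muscles at the Utrn start are shown beside those of the distal region called in Sol and Dia, to set a widely open site against one called in 2 muscles. They are chr10:12868298-12868359 and chr10:12354587-12354793 in GRCm38.p6, given on the minus strand.
Utrn upstream start region: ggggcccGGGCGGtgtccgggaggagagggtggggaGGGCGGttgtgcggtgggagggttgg
Utrn distal region: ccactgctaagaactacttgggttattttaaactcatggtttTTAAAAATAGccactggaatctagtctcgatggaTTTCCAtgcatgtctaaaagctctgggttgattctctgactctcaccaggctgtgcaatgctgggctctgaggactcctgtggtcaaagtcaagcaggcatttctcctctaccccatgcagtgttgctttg

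The start region shown is the one at 6.53 kb, and the better-ranked one at 7.48 kb is not shown. It was 77.4% G and C and held 2 SP1 matches, and 58.1% of its bases are masked as repeat. The distal region was 45.4% G and C and held 1 match each to MEF2 and NFAT, which were present in 4.70% and 20.6% of 42117 non-promoter regions cut to 200 bp.

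Dag1 encodes dystroglycan, the receptor that dystrophin and laminin bind from opposite sides of the membrane, and lies at chr9:108204634-108263958 on the minus strand. Its promoter had the highest-ranked peak of the 9 genes in every muscle. The peak held 162 tags in EDL (138 to 189) and 167 in Quad (143 to 194), and 163 in Sol (139 to 190) and 160 in Dia (136 to 187), and ranked at percentile 90.3, 96.0, 90.4 and 89.5. As raw tags, the intervals overlapped throughout. The Peak Scores, which are scaled to library size, were 15.6, 21.4, 15.6 and 16.1, the highest in Quad. Beyond the promoter, an intronic region 11.7 kb from the start was called in Quad (18.0) and Sol (20.5), another intron peak (43.4) in Quad only and a peak 10.9 kb upstream (20.5) in Sol only.

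Lama2 encodes the laminin alpha-2 chain of the muscle basement membrane, on the outer side of dystroglycan, at chr10:26980036-27619758 on the minus strand. Its promoter was called in EDL (50 tags, 37.1 to 65.9, percentile 20.5) and Quad (42 tags, 30.3 to 56.8, percentile 34.4) and in neither Sol nor Dia. The nearest Sol peak was 229114 bp away and the nearest Dia peak 457737 bp away. Both called peaks were low in their lists, and neither was among the 20000 highest-scored peaks. The other Lama2 peaks lay upstream of the gene, 5.27 kb away in EDL (30.1) and 35.8 kb (41.8) and 37.4 kb (34.4) away in Quad, the last pair within Gm30165. The tag counts at the promoter in Sol and Dia were not analysed here.

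The 250 bases upstream of the Dag1 and Lama2 starts are shown because they are the best-ranked promoter and a promoter called in EDL and Quad only. They are chr9:108263959-108264208 and chr10:27616943-27617192 in GRCm38.p6, both on the minus strand.
Dag1 promoter: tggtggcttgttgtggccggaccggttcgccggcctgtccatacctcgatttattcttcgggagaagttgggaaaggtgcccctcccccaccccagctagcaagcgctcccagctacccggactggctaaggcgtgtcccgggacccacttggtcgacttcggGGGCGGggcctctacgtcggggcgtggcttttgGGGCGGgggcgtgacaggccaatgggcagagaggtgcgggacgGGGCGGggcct
Lama2 promoter: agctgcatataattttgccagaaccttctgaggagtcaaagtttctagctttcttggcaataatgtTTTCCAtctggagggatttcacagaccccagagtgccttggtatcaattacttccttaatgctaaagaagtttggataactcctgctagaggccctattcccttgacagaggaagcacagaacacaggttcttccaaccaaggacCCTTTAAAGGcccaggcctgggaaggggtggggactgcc

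The Dag1 promoter was 67.6% G and C and held 3 SP1 matches. The Lama2 promoter was 47.2% G and C and held 1 CArG box, a motif of 1.63% of promoter windows, and 1 NFAT match, a motif of 21.4%.

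The Lama2 gene body held more open chromatin than the nearest-TSS rule assigned to it. EDL had 4 peaks inside the body, Quad 7, Sol 4 and Dia 0. Of these 3, 6 and 4 were assigned to Arhgap18 or to 4930579H20Rik, whose starts are nearer. All 4 Sol peaks within Lama2 were therefore counted for another gene. Similarly, 2 of the 3 peaks inside Dag1 in EDL and 2 of 4 in Quad were assigned to Bsn.

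The sarcoglycans were next. Sgca, which encodes alpha-sarcoglycan, lies at chr11:94962791-94976327 on the minus strand and had no peak within 1 kb of its RefSeq start. A region 2.85 kb upstream, annotated as intergenic, was open in all 4 muscles at percentile 78.4 in EDL and 79.4 in Quad, and 74.2 in Sol and 62.1 in Dia. It held 116 raw tags (95.9 to 139), 87 (69.7 to 107), 109 (89.5 to 131) and 89 (71.5 to 110). Scaled to library size, the Peak Scores were 11.2, 11.1, 10.4 and 8.96, the lowest in Dia. A region in the 5' untranslated region, 2.88 kb downstream of the RefSeq start and 14 bp from a GENCODE coding transcript start, was called in EDL (63.2) and Quad (52.1) only. The nearest Sol and Dia peaks to it lay 5523 bp and 5528 bp away. All 6 Sgca peaks ranked above the median of their list.

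Sgcb, which encodes beta-sarcoglycan, lies at chr5:73632749-73647790 on the minus strand and had a single region, just inside intron 1, where the gene overlaps Gm43799. The peak was centred 378 bp from the start in EDL, 364 bp in Quad, 345 bp in Dia and 189 bp in Sol. It held 81 tags in EDL (64.3 to 101) and 108 in Quad (88.6 to 130), and 109 in Sol (89.5 to 131) and 63 in Dia (48.4 to 80.6), at percentile 57.9, 87.1, 74.2 and 36.8. The Dia interval did not overlap those of Quad or Sol, in libraries whose inferred totals were 99.3 M tags (M, mega) for Dia, 78.1 M for Quad and 105 M for Sol. Library differences of other kinds cannot be told apart from muscle with 1 library each.

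Sgcd, which encodes delta-sarcoglycan, lies at chr11:46896253-47988969 on the minus strand. Its promoter ranked at percentile 64.5 in EDL and 83.6 in Quad, and 71.1 in Sol and 75.1 in Dia. Among the promoter-class peaks of its own list, it ranked lower, at 35.2, 54.6, 43.6 and 51.9. An intron 1 region 1.74 kb from the start was open in all 4 lists as well, at 76.3, 68.2, 64.6 and 69.8. Quad alone had peaks on each side of it, at 1.08 kb (57.9) and 2.25 kb (74.0), within 281 bp to 492 bp of peaks of the other muscles. An intron 2 region 128.8 kb from the start was called in EDL (44.3) and Quad (68.2), with the nearest Sol and Dia peaks 126783 bp and 126776 bp away. A region 326 kb upstream of the RefSeq start was called in EDL (34.3), Quad (48.0) and Dia (28.1). It was annotated as intergenic and falls inside the GENCODE body of Sgcd. A low-ranked region 11.7 kb upstream, of which 90% is masked as repeat, was called in EDL (8.30) and Dia (1.53). This region too falls inside the GENCODE body of Sgcd. Sol had 2 Sgcd peaks, the promoter and the intron region beside it.

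The bases common to the called peaks are shown for the Sgca upstream region and the Sgcd intron 1 region, which were open in all 4 muscles away from a RefSeq start, and for the Sgcd intron 2 region called in EDL and Quad. They are chr11:94979087-94979264, chr11:47377464-47377638 and chr11:47250440-47250608 in GRCm38.p6, all on the minus strand.
Sgca upstream region: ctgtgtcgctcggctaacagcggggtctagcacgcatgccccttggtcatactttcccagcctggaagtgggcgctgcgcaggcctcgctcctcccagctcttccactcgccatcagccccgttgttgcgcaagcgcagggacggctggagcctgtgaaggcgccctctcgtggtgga
Sgcd intron 1 region: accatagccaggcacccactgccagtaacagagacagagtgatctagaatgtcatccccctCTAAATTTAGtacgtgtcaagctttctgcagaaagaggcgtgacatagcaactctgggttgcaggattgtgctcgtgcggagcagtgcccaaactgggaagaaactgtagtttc
Sgcd intron 2 region: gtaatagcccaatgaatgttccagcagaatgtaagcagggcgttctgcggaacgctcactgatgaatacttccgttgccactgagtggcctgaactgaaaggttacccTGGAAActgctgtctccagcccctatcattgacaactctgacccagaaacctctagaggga

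The Sgca upstream region was 65.7% G and C with no match to the marked motifs. The Sgcd intron 1 region was 49.7% G and C and held 1 MEF2 match, and the intron 2 region was 50.3% G and C and held 1 NFAT match.

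Sntb1 encodes beta-1-syntrophin, an adaptor for signalling proteins on the inner face, and lies at chr15:55636388-55906949 on the minus strand. It was the only one of the 9 genes besides Lama2 without a region shared by all 4 lists. A peak near its start was called in Dia alone, in the 5' untranslated region 150 bp from the start, with 53 tags and percentile 21.7. Sol had 7 peaks in all, Quad 6, EDL 3 and Dia 3. Sol ranked these low, with 33.4 as its highest percentile, at a region in intron 2 that EDL (20.5) and Quad (28.0) shared. The Quad peaks at the exon 3 region (53.3) and the intron 3 region 171.9 kb from the start (55.7) ranked higher than the Sol peaks there, 3.33 and 6.65. In the upper 50% of each list by score, Sntb1 had 2 peaks in Quad and 0 in EDL, Sol and Dia. Far upstream, an EDL peak (20.5) and a Dia peak (28.1) lay 11 bp apart within Gm49212, 140.1 kb and 139.9 kb from the start, and Quad had a peak (4.70) 136.5 kb from it.

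A Sntb1 region in intron 3, 159.2 kb from the start, was called in Sol (percentile 8.21, 43 tags) and Dia (15.0, 49 tags) only. Its common bases are shown as the counterpart of the regions above that were called in EDL and Quad only. They are chr15:55747772-55747915 in GRCm38.p6 on the minus strand. The nearest Quad peak lay 1248 bp away, and the sequence is 45.8% G and C with 3 E-box matches (CANNTG, unmarked).
Sntb1 intron 3 region: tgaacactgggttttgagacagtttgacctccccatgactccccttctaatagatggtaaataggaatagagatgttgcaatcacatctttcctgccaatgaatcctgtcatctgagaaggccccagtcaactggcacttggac

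Dtna encodes alpha-dystrobrevin, a dystrophin relative that binds the syntrophins. Its main promoter peak ranked at percentile 43.2 in EDL and 85.0 in Quad, and 62.5 in Sol and 61.4 in Dia. Among the promoter-class peaks of its own list, it ranked lower, at 16.3, 57.3, 32.8 and 32.8. A promoter peak at another Dtna start, at least 105021 bp from any peak of the other muscles, was called in Sol only (17.6). An intronic region 14.4 kb from a start was open in all 4 lists at 72.9, 63.0, 46.9 and 49.7, with the highest rank in EDL. Another, 37.1 kb from a start, was open in all 4 at 18.8, 40.0, 63.9 and 36.8, with the highest rank in Sol. Further regions lay in intron 1, inside the gene and upstream of an internal start. The region 39.0 kb upstream of that start was called in EDL, Quad and Sol between percentiles 45.9 and 50.8. The region 29.8 kb upstream of it was called in EDL (1.53) and Quad (23.4). Dtna thus had 3 regions in all 4 lists, after Utrn the most of the 9 genes.

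**Figure D4:**
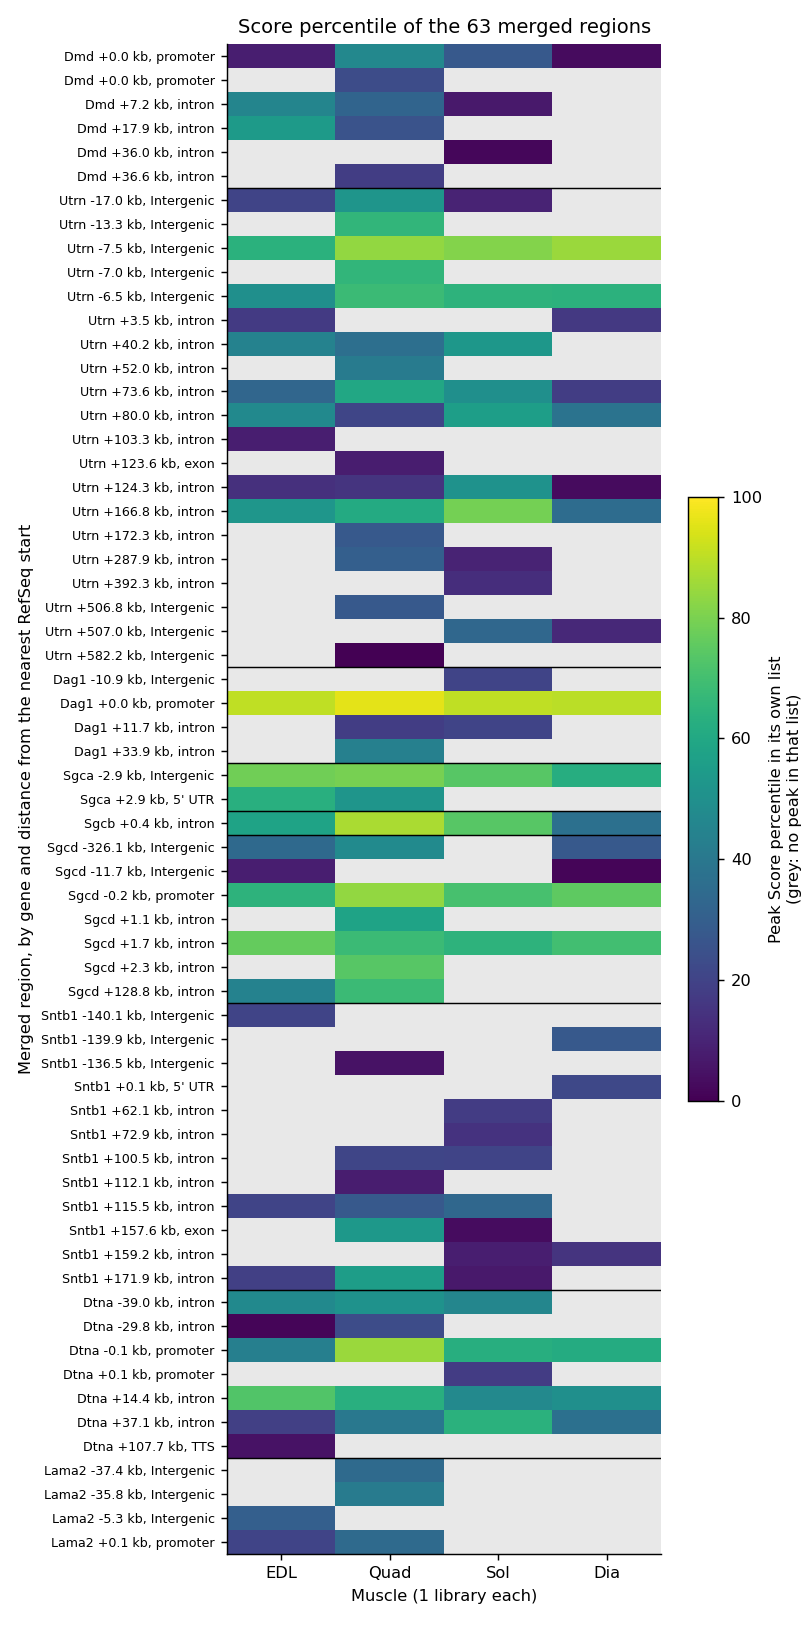
Score percentile within its own list (colour, 0 to 100) of the highest-scored peak of each of the 63 regions in EDL, Quad, Sol and Dia, with grey where the list has no peak, by gene and by distance from the nearest RefSeq start (kb). The brightest row is the Dag1 promoter, and the 12 Sntb1 rows hold no region filled in all 4 columns.

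Sharing of the 63 regions among the muscles was compared with that of all regions. Of the 63, 15 were open in all 4 lists, or 23.8% (15.0 to 35.6), against 26.9% of all 53883 regions. A further 7 were open in 3 lists, 13 in 2 and 28 in 1. The regions in 1 list made up 44.4% (32.8 to 56.7), against 42.6% of all regions. Both intervals contained the value for all regions. With the upper 50% of each list by score, the regions in 1 list were 14 of 26 (53.8%, 35.5 to 71.2) against 33.2% of all regions, which lay below the interval, and those in all 4 were 6 of 26 (23.1%, 11.0 to 42.1) against 35.1%, which lay inside it. Of the 28, 16 were in Quad, 6 in Sol, 4 in EDL and 2 in Dia, and a peak of another list lay within 500 bp of 6, 1, 1 and 1 of them.

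Regions in all 4 lists ranked higher than the rest. Their median percentile was 52.5 in EDL and 68.2 in Quad, and 64.6 in Sol and 49.7 in Dia (15 regions each), and that of the other regions of the genes was 20.5 (18 regions), 34.4 (32), 16.1 (18) and 16.7 (7). Rank and sharing are not independent measures, since both rest on which peaks were called.

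Among regions in 2 lists, 5 joined EDL with Quad, 4 Quad with Sol, 2 Sol with Dia and 2 EDL with Dia. Taken pair by pair, EDL and Quad shared 48.1% of the genes' regions found in either, against 51.6% of all regions. EDL and Sol shared 46.7% against 52.7%, EDL and Dia 48.6% against 46.7%, Quad and Sol 45.5% against 44.8%, Quad and Dia 30.2% against 38.3%, and Sol and Dia 44.7% against 48.6%. The lowest pair was Quad and Dia, the longest and the shortest list, for the genes and for all regions alike.

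**Figure D5:**
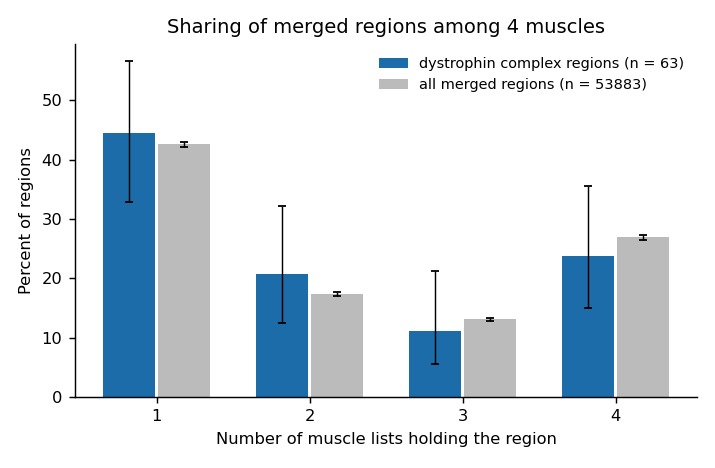
Percent of merged regions (vertical axis) held by 1, 2, 3 or 4 of the muscle lists (horizontal axis), for the 63 regions of the 9 genes and for all 53883 regions, with 95% Wilson intervals for counting error. The bars for the 9 genes differ from those for all regions by less than their intervals at each number of lists.

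Long genes offer more room for peaks, so peaks were also counted in annotated gene bodies, whichever gene they were assigned to, and set against protein-coding genes of similar length (within 1.5 times). Utrn had 1.85 peaks per 100 kb in EDL and 2.46 in Quad, and 1.85 in Sol and 1.44 in Dia, where the median of 391 genes was 0.440, 0.716, 0.517 and 0.266. That placed it at percentile 83.5, 81.5, 83.5 and 91.9 among these genes. Dtna stood between 68.7 and 85.8 among 893 genes, with 2.45 peaks per 100 kb in Quad and Sol, 2.86 in EDL and 1.64 in Dia. Dag1 had 5.06 peaks per 100 kb in EDL, 6.74 in Quad and 3.37 in Sol, at percentile 90.5, 90.1 and 79.5 among 3330 genes, and 0 in Dia, at 24.2, where the centre of its 1 peak lay outside the body. Sgca and Sgcb are short, and the median of genes of like length was 0 peaks in every muscle. The body of Sgcb held 1 peak in each muscle, which placed it between 74.2 and 82.8 among 4695 genes. The body of Sgca held 1 peak in EDL and 1 in Quad, at 81.7 and 76.9 among 4654 genes, and 0 in Sol and Dia, at 33.1 and 34.5.

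Dmd, the longest, had 0.0886 peaks per 100 kb in EDL and 0.266 in Quad, and 0.133 in Sol and 0 in Dia. In EDL and Dia the centre of its muscle promoter peak lay just upstream of the body and was not counted, unlike in Quad and Sol. The Quad value included 1 peak assigned to Fthl17a. The median of the 14 genes of like length was 0.0944, 0.234, 0.128 and 0.0228. Dmd was thus near the middle of that small group in EDL (percentile 46.4), Quad (60.7) and Sol (53.6), and at 25 in Dia. Lama2 stood between 65.1 and 70.8 among 245 genes in EDL, Quad and Sol and at 21.2 in Dia, where its body held 0 peaks. Sgcd stood at 73.1, 66.5, 55.2 and 84.4 among 106 genes and Sntb1 at 58.5, 65.4, 84.4 and 59.9 among 790, where the value of 84.4 was in Sol.

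Motifs were counted in 200 bp windows centred on the regions, separately for promoter-class regions (7 of the genes) and others (56). Among the others, an E-box (CANNTG) was present in 34 of 56 (60.7%, 47.6 to 72.4) against 71.6% of all such regions, and its MyoD-type form CAGCTG, which every E-box count includes, in 16.1% (8.69 to 27.8) against 22.7%. MEF2 was present in 7.14% (2.81 to 17.0) against 4.70%, AP-1 in 16.1% (8.69 to 27.8) against 11.3%, TEAD (CATTCC) in 19.6% (11.3 to 31.8) against 13.5% and NFAT in 23.2% (14.1 to 35.8) against 20.6%. For each of these 6 motifs the interval contained the share of all regions. The CArG box was present in 1.79% against 1.13%, SP1 in 8.93% against 10.1% and the ETS motif CCGGAA in 1.79% against 4.59%. MEF3 (TCAGGTT) was in 0 of 56, which allows up to 6.42%, against 3.52%. Among the 7 promoter-class regions SP1 was present in 5, against 60.9% of all, and ETS in 0, which allows up to 35.4%, against 23.7%. An E-box was present in 6 of the 7 (85.7%, 48.7 to 97.4) against 45.9%, TEAD in 2 (28.6%, 8.22 to 64.1) against 7.21% and the CArG box in 1 (14.3%, 2.57 to 51.3) against 0.920%, each with the share of all promoter regions just below the interval. The MyoD-type E-box was in 2, against 1414 of all 11740 promoter regions, NFAT in 1, against 9.45%, AP-1 in 1, against 3.20%, and MEF2 and MEF3 in 0, against 1.01% and 1.85%, shares that lay inside the intervals. With 7 regions and 10 motifs these shares are a description.

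Related genes were examined in 3 lists. Of 10 partner genes, among them caveolin-3 (Cav3), a promoter peak was present for 3 in EDL and 5 in Quad, and 4 in Sol and 2 in Dia. The shares of all protein-coding genes, given above, were 39%, 42.8%, 38.9% and 38.3% in the same order, and they serve for the other lists too. Sntb2 had one in all 4 lists and Sgcz had no peak at all. Dtnb had one in Quad, Sol and Dia, Cav3 in EDL, Quad and Sol, Sspn, which encodes sarcospan, in EDL and Quad, Dtnbp1 in Quad only and Sntg2 in Sol only. Sspn had 40 peaks over the 4 lists and Dtnbp1 29. Nos1, the nitric oxide synthase that syntrophin anchors, had 16 peaks and no promoter peak.

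Of 16 genes for the glycosylation of dystroglycan, which lets it bind laminin, a promoter peak was present for 14 in EDL and 12 in Quad, and 11 in Sol and 13 in Dia, and for 10 in all 4, against 31.2% of all protein-coding genes. Pomt1 lacked one in Quad, Dpm3 in Sol, Pomgnt2 in Sol and Dia, and Dpm1 in Quad and Sol, while Pomt2 had no peak. Of 17 genes of matrix and membrane linkage, the counts were 9 in EDL and 13 in Quad, and 8 in Sol and 6 in Dia, beside the same shares of all genes. Dysf, which encodes the membrane repair protein dysferlin, had the most peaks of the 3 lists, 11 in EDL and 16 in Quad, and 13 in Sol and 5 in Dia, with a promoter peak in all but Dia. Lamb2 had its promoter peak in the same 3 muscles, Capn3 in EDL and Quad, and Lama4, Col6a1, Col6a3 and Plec in Quad only. Lamc1 had 24 peaks, and Itgb1 and Col6a3 23 each.

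By the distribution of peak number over the 4 muscles, each list taken as a share of the gene's total, the 3 genes most like the sum of the 9 among 979 genes with at least 20 peaks were Mbnl2 (11 peaks in EDL and 16 in Quad, and 11 in Sol and 7 in Dia), Hmcn1 (7, 10, 7 and 5) and Cped1 (8, 11, 8 and 5). The summed absolute difference of shares was 0.0148, 0.0189 and 0.0222.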

How the data were processed

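ATAC-seq peak lists of 4 mouse muscles were analysed, with 1 pooled library per muscle as the labels give them. The authors transposed pulverised frozen muscle, aligned reads to mm10 with Bowtie2, called fixed-width peaks in each library separately with HOMER and annotated each to the nearest TSS (tools as named in the submitters' processing notes). The handling of the Tn5 offset and of mitochondrial reads is not given in the sources used here. Each deposited file holds a Peak Score per peak, the authors' tag count scaled by library size, and a focus ratio, a fraction from 0 to 1 that was used only in a summary of the lists. Start, end and distance to the TSS in bp were used as deposited.

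The 9 genes, the gene lists and the motifs were chosen with earlier results of these data known. The peak width was fixed within a list, at 208 bp (EDL), 188 bp (Quad), 206 bp (Sol) or 232 bp (Dia), and a wider peak overlaps others more easily. A missing peak means that none was called, not that the site was closed. Below a score of 10 the scores were whole multiples of the worth of 1 tag (tolerance 0.005 of score), from which tags were inferred, on the assumption that scores are scaled to 10 M tags (M, mega) for the library totals. Intervals are Wilson for shares, exact Poisson for tags and order-statistic for medians, each at 95% and for counting error only. No p-value was computed, since each muscle had 1 library. Promoter class followed the annotation column. GRCm38.p6, the assembly of mm10, supplied sequences (RefSeq) and GENCODE vM21 the gene bodies, and coordinates are 1-based. RefSeq promoter windows were found for 7 of the 9 genes. A gene body percentile counts genes with fewer peaks per 100 kb, with ties at their mean rank.

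Lists of 10 partner genes, 16 glycosylation genes, 17 matrix and membrane genes and markers of 8 cell types were counted, and some partner genes are not reported here. The genes named from the first 3 lists were those with a promoter peak in 1 to 3 muscles, those with no peak and the 5 with the most peaks, besides genes whose bodies hold a peak of the 9 genes, and a few others were named as examples after their values were seen. Alternatives were 20000 peaks per list, the upper 50% by score, 50% reciprocal overlap, joining within 500 bp, peaks within 50 kb of the TSS or within gene bodies, other promoter rules and percentiles within annotation class. Overlap and tag inference were tested on simulated data. Python 3.11.15, pandas 2.3.3, numpy 2.4.6, scipy 1.17.1 and pysam 0.24.0 were used.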

Additional observations from a re-analysis of the deposited data

How the results depend on the processing

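No paired analysis was possible because every muscle had only 1 library. When lists were limited to 20000 peaks by score, the genes had 18 peaks in EDL, 21 in Quad and 18 in Sol, 3 promoter peaks in each of these, and Sol and Dia shared 60.9% of regions, against 54.5% of all regions. With the upper 50% of each list, the genes had 11 peaks in EDL and 21 in Quad, and 14 in Sol and 7 in Dia, and 2, 3 and 3 promoter peaks in EDL, Quad and Sol. Within 50 kb of the TSS, 29 peaks remained in Quad, 19 in Sol and 14 in Dia. Counting peaks within 1 kb of any GENCODE coding start, a rule added after seeing the data, gave 9 promoter peaks in EDL and 11 in Quad, and 7 in Sol and 8 in Dia, and the share of all peaks then lay inside the interval in each muscle. At 50% reciprocal overlap the share of regions in all 4 lists was 13.9%, against 19.8% of all regions, and pairs shared 29.4% (EDL and Sol), 27.0% (Quad and Sol) and 15% (Quad and Dia), against 42.9%, 34.9% and 29.6% of all regions. The last, 29.6%, lay above the interval for the genes (8.10 to 26.1), and the other 5 pairs at that overlap had intervals that contained the share of all regions. Stricter limits keep fewer peaks, and a stricter overlap splits regions, by construction. Joining within 500 bp, gene bodies, the rule of 1 kb on either side of a RefSeq start and percentiles within annotation class moved none of these summed counts and shares past their limits. Of the 36 counts per gene and muscle, 14 moved with 20000 peaks, 23 with the upper 50%, 9 within 50 kb and 9 within gene bodies. The lowest called peaks held 25 to 36 tags, and openness below that was not detectable.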

Other observations

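Markers of other cell types were counted in the same lists, in the order EDL, Quad, Sol and Dia. The 5 fibro-adipogenic markers had 9, 13, 5 and 2 peaks. The 4 smooth muscle and pericyte markers had 5, 10, 4 and 2 peaks, the 3 Schwann markers 1, 1, 2 and 1, the 2 satellite cell markers 2, 6, 3 and 1, and the 2 adipocyte markers 1, 0, 0 and 2. Promoter peaks were present at 1, 2, 0 and 1 of the smooth muscle and pericyte markers and at 0, 0, 1 and 0 of the fibro-adipogenic markers. No promoter peak was assigned to a Schwann, satellite cell or adipocyte marker in any list. Of all protein-coding genes, 39%, 42.8%, 38.9% and 38.3% had one.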
